A study of Mus musculus with 10 samples.

Results

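The first days of factor-induced reprogramming were examined by comparing RNA from uninduced mouse embryonic fibroblasts (MEF) with RNA from fibroblast cultures with the same transgenes at day 3 of induction. The comparison used the 4 libraries of these stages, 2 a side, out of 10 libraries in 5 groups. All libraries of both stages came from fibroblasts on a C57BL/6 x 129 background that carried a polycistronic cassette for Oct4 (Pou5f1), Klf4, Sox2 and Myc in the Col1a1 locus and the transactivator M2rtTA in the Rosa26 locus. M2rtTA switches the cassette on when doxycycline is present. MEF libraries came from unsorted cells in fibroblast medium without doxycycline. Day 3 libraries came from unsorted cells in embryonic stem cell (ESC) medium, which holds serum and LIF, with 1 µg/ml doxycycline and 50 µg/ml ascorbic acid. The effects of the factors, doxycycline, ascorbic acid and the change of medium therefore cannot be told apart in this comparison. Cells at day 6 and day 9, which were sorted for the surface epitope SSEA1, and V6.5 ESCs grown on irradiated feeder cells are given below only as later levels of genes named at day 3. The design text calls the libraries biological replicates but does not say whether a pair came from separate embryos or cultures. The p-values therefore measure the spread within such pairs of libraries, estimated over all 10 libraries of the 5 groups.

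Oct4, Sox2 and Klf4 are transcription factors that bind DNA together in pluripotent cells, and Myc is a factor that promotes growth and cell division. When all are forced into fibroblasts, a small part of the cells reaches pluripotency over many days. Textbook accounts place loss of fibroblast genes, faster division and gain of epithelial genes early, and activation of the endogenous pluripotency network late. A culture at day 3 is a mixture of cells at different points on this path.

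The 4 libraries held 31581226 to 38275024 estimated reads, and 16137 to 16985 genes had at least 10 reads. Of 12 markers used to check the fibroblast label, all were measured in the MEF libraries, led by Col1a1 at 15555 and 14389 CPM (counts scaled to the library total as adjusted by edgeR's TMM factor, used for all CPM values here), Col1a2 at 14452 and 14149 and Col3a1 at 7592 and 7656. The MEF and day 3 libraries also differed in sex-linked RNA. Xist (chromosome X, 103460366 to 103483254, GRCm38), the RNA that coats the inactive X chromosome, was at 0.739 and 0.793 CPM in the MEF libraries and 929.6 and 1090 CPM at day 3. The Y-linked genes Ddx3y, an RNA helicase, and Eif2s3y, a translation factor, were at 90.6 and 86.4 and at 54.2 and 58 CPM in the MEF libraries, and at 0.0538 and 0.0887 and at 0.0269 and 0.0887 CPM at day 3. Uty and Kdm5d, both Y-linked members of histone demethylase families, fell by 6.48 and 4.03 on the log2 scale, and Tsix was at 0 in all 4 libraries. The MEF libraries thus carried the RNA pattern of male cells and the day 3 libraries that of female cells. The stages were therefore not the same cell population before and after induction, and the labels do not say from which embryos they came. Effects of sex, and of whatever else differed with it, cannot be told apart from those of induction. Without the genes of chromosomes X and Y, 2823 genes were higher and 2811 lower at day 3.

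Of 20165 genes tested, 2950 (14.6%) were called higher and 2923 (14.5%) lower at day 3, with edgeR's quasi-likelihood test at a Benjamini-Hochberg adjusted p under 0.05 and a log2 fold change of at least 1. These shares are the background for each count of a gene list or family below. Below, "rose" and "fell" are used for genes that passed both thresholds, and fold changes are day 3 over MEF with their standard errors (SE). The changes were often large: 673 of the genes that rose and 939 of those that fell changed by at least 3 on the log2 scale, and 271 and 340 by at least 5. The genes called lower held 28.8% and 28.6% of all reads in the MEF libraries and 7.77% and 7.76% at day 3. The genes called higher went from 3.23% and 3.22% to 12.6% and 12.7%. Of the protein-coding genes, 54 stood under 1 TPM, the length-corrected level, in both MEF libraries and at 10 TPM or more in both day 3 libraries, and 61 showed the opposite. Both stages were separated without overlap in 79.3% of all genes tested, so lack of overlap between the libraries is not by itself a sign of a large change here. Scaling by library size in place of TMM moved the median over all genes tested, on the log2 scale, from 0.08 to 0.285 and gave 3809 higher and 2483 lower genes, 60.5% of the calls higher in place of 50.2%.

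**Figure D1:**
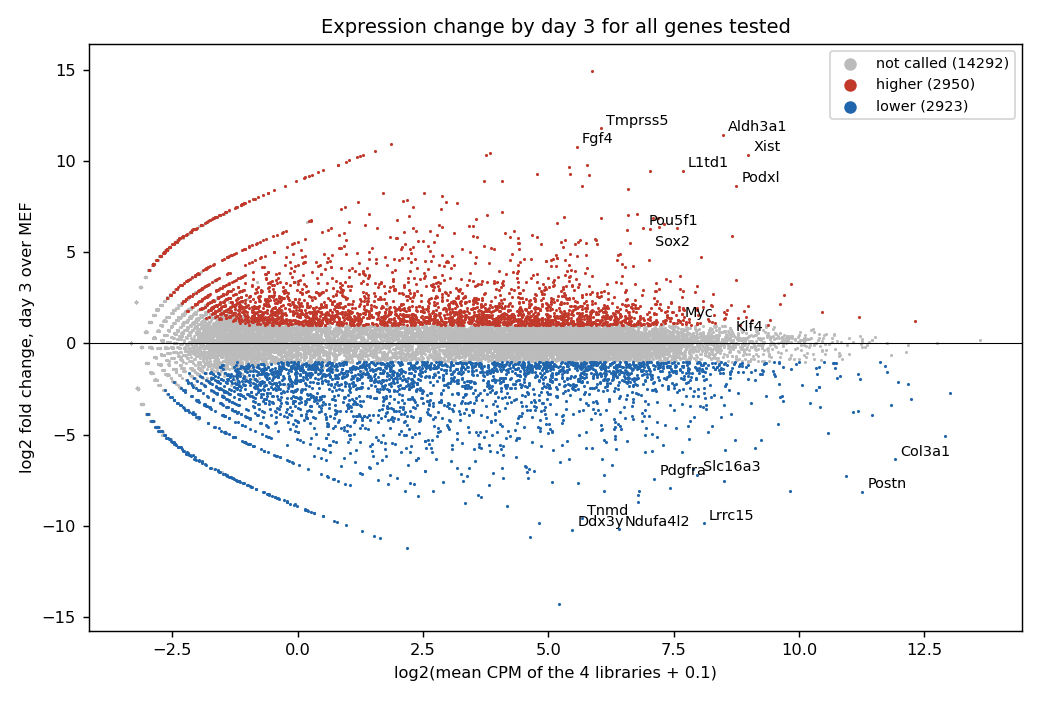
Each point is 1 of the 20165 genes tested, with the log2 of the mean CPM of the 4 libraries plus 0.1 on the horizontal axis and the log2 fold change of day 3 over MEF on the vertical axis. Red points are the 2950 genes called higher and blue points the 2923 called lower, and Col3a1 and Postn stand out as abundant genes that fell while Pou5f1 and Sox2 rose by over 6.

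The cassette factors gave the check of induction. Pou5f1 (chromosome 17, 35506018 to 35510772) was at 3.36 and 2.59 CPM in the MEF libraries and 224 and 243 CPM at day 3. Sox2 (chromosome 3, 34650405 to 34652461) went from 3.25 and 3.48 to 253 and 262 CPM. Both thus stood close to 0 in each MEF library and far higher in each day 3 library, with log2 fold changes of 6.31 (SE 0.09) and 6.25 (SE 0.05). Myc (chromosome 15, 61985391 to 61990374) started from a fibroblast level of 118 and 117 CPM and rose to 276 and 275 CPM, a log2 fold change of 1.23 (edgeR adjusted p = 6.3e-13, SE 0.04). Klf4 (chromosome 4, 55527143 to 55532466) was at 329.9 and 320.3 CPM before induction and 457 and 464 CPM at day 3, a log2 fold change of 0.50 that did not reach the fold threshold. On the TPM scale, which corrects for length, Klf4 passed it, with a log2 fold change of 1.17 by limma on log2(TPM + 1). Of the Klf4 reads, those assigned to the 522 nt transcript Klf4-003 made up 5.6% and 5.3% in MEF. At day 3 they made up 14.6% and 15.2%, and most others went to the 3029 nt Klf4-001. The part of this shift in the TPM value was not tested. Reads of the cassette and of the endogenous genes were counted together. Of the Myc reads, those assigned to the transcript Myc-202 made up 4.2% in both MEF libraries and 82.0% and 85.0% at day 3.

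Fibroblast transcription factors fell in most cases. Of 24 tested, 15 fell and 2 rose, against 14.5% and 14.6% of all genes, and the median log2 fold change was -1.53. Osr1, a factor of connective tissue progenitors, went from 44.4 and 42.5 CPM to 1.72 and 1.83 CPM. Twist2, a mesenchymal bHLH factor, went from 90.3 and 90.7 to 7.35 and 6.47 CPM, and Zeb2, a repressor of epithelial genes, from 154 and 148 to 19.3 and 21.2 CPM. The epithelial repressors Snai1 and Snai2 fell by 2.08 and 2.50 on the log2 scale. Not all such factors moved alike. Twist1 was at 79 and 84.6 CPM in MEF and 47.1 and 45.4 CPM at day 3 (log2 fold change -0.82), Prrx1 at 715 and 712 and 380 and 403 CPM (-0.87), and neither reached the fold threshold. Prrx1, a homeobox factor of limb and skin mesenchyme, passed it on the TPM scale at -1.06. Zeb1 was slightly higher at day 3, at 75.8 and 79.2 CPM against 60.5 and 64.3, and was not called. The 2 members that rose were Foxd1, a forkhead factor of stromal cells, from 5.76 and 5.49 to 39 and 36.3 CPM, and the mesodermal homeobox factor Meox2, from 4.99 and 5.7 to 18.9 and 18.2 CPM.

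Genes of the extracellular matrix fell almost throughout. None of 30 tested rose and 28 fell, with a median log2 fold change of -3.56, and their share of all reads went from 9.36% and 9.1% to 1.25% and 1.26%. Col1a1 (chromosome 11, 94936224 to 94953042), the alpha 1 chain of type I collagen and the locus that also houses the cassette, was at 15555 and 14389 CPM in MEF and 444 and 445 CPM at day 3. That is a 33.6-fold fall, far beyond the gap between the MEF libraries. Col3a1, of type III collagen, went from 7592 and 7656 to 94.1 and 90.8 CPM. Periostin (Postn, chromosome 3, 54361109 to 54391037), a matrix protein of fibroblasts, went from 4875 and 4885 to 17.3 and 17.1 CPM, a log2 fold change of -8.15 (edgeR adjusted p = 9.8e-19, SE 0.06). Col12a1 fell from 4042 and 3789 to 25 and 25.1 CPM and Mfap4, a microfibril protein, from 219 and 229 to 1.02 and 0.591 CPM. The crosslinking enzyme Lox and elastin (Eln) fell by 4.93 and 4.84 on the log2 scale. Chains of the same fibre fell to different degrees: Col1a2, the partner of Col1a1 in type I collagen, kept 2178 and 2170 CPM from 14452 and 14149, a 6.58-fold fall, and the test of a difference between the 2 genes was not made. Col6a2 and Fbln1, at log2 fold changes of -0.83 and -0.80, were the members not called. In bulk RNA, fewer cells that express a gene and less RNA per cell cannot be told apart.

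Receptors and surface markers of fibroblasts moved with the matrix. Pdgfra, the receptor for platelet-derived growth factor that marks mesenchymal cells, was at 275 and 274 CPM in MEF and 1.67 and 1.48 CPM at day 3, a 174-fold fall. Thy1, a surface marker used to follow loss of fibroblast identity, went from 1137 and 1161 to 162 and 146 CPM (log2 fold change -2.90). Among the 12 fibroblast markers only vimentin (Vim, -0.47) was not called.

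Contractile genes and targets of the serum response factor (SRF) fell in part. Of 25 tested, 16 fell and 2 rose (median log2 fold change -1.07). The smooth muscle genes Cnn1 and Myh11 went from 232 and 238 to 7.57 and 6.92 CPM and from 93.3 and 96.4 to 3.02 and 2.9 CPM. Acta2, smooth muscle actin, remained abundant at 1805 and 1737 CPM against 5138 and 5251. The enteric actin gene Actg2 rose instead, from 392.2 and 408 to 995 and 953 CPM (log2 fold change 1.28). Ctgf rose by 1.01, at the threshold, and no longer passed it in 8 of the alternative settings, with values from 0.86 to 0.98 in 7 of them.

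**Figure D2:**
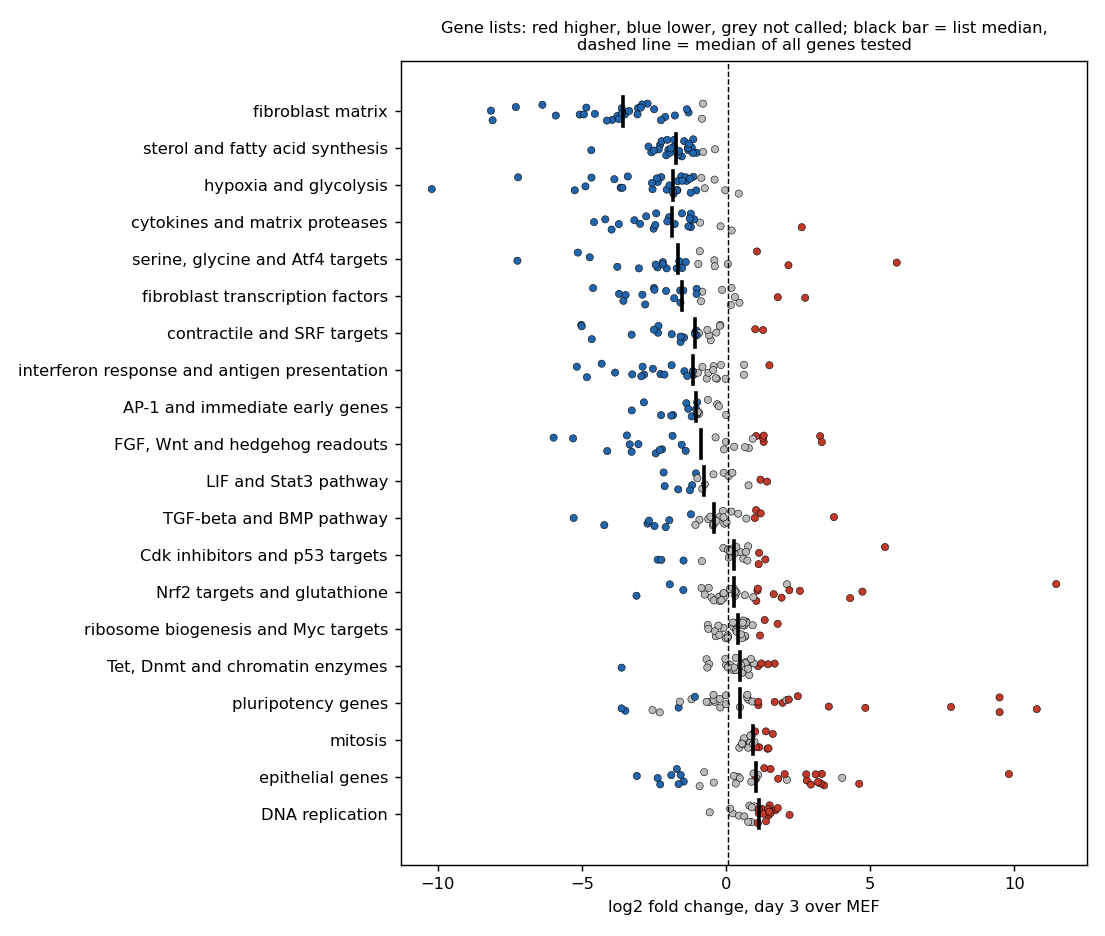
Points are the tested members of 20 gene lists, placed by log2 fold change of day 3 over MEF. Red points are genes called higher, blue lower and grey not called, the black bar is the list median and the dashed line the median of all genes tested (0.08). The list medians run from -3.56 for the fibroblast matrix to 1.14 for DNA replication.

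In the TGF-beta and BMP pathway, which sustains the mesenchymal state in many cell types, ligands and targets went both ways. Of 27 tested, 8 fell and 4 rose, against 14.5% and 14.6% of all genes (median -0.43). Among ligands, Tgfb1 fell from 68.9 and 66.1 to 10.3 and 10.2 CPM and Inhba, the activin A subunit, from 75.2 and 73.5 to 3.82 and 4.17 CPM, whereas Bmp2 rose from 1.4 and 0.640 to 13.5 and 13.3 CPM. Id2, an inhibitor of bHLH factors and a BMP target, rose from 104 and 103 to 247 and 229.6 CPM. Id1 and Tgfb2 rose by 1.04 and 1.00, so close to the threshold that DESeq2, at 0.92 and 0.88, did not call them. The receptors Tgfbr1 and Bmpr2 and the mediators Smad3 and Smad4 differed by -0.06, -0.33, 0.02 and -0.21 and were not called.

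Glycolysis and the targets of the hypoxia-inducible factor (HIF) fell broadly. None of 34 tested genes rose and 29 fell, with a median log2 fold change of -1.83, and their share of reads went from 2.08% and 2.1% to 0.693% and 0.676%. HIF binds a short DNA element and induces glycolytic enzymes, vessel growth factors and its own regulators when oxygen is low. Ndufa4l2 (chromosome 10, 127514967 to 127517154), a HIF target in mitochondria, was at 173 and 168 CPM in MEF and 0.189 and 0.0887 CPM at day 3. Slc16a3, the lactate exporter MCT4, went from 496 and 502 to 2.99 and 3.78 CPM and Vegfa, the vessel growth factor, from 360.4 and 360.1 to 14.4 and 14 CPM. Within the glycolytic chain, Pfkl, Aldoa, Ldha, Eno1 and Pgk1 fell by 3.41, 2.55, 2.40, 2.37 and 2.24 on the log2 scale, while Gpi1 (-0.40), Hk2 (-0.74) and Eno2 (0.44) were not called. Hif1a itself fell from 269.9 and 284 to 94.2 and 99.5 CPM. The prolyl hydroxylases that modify collagen, P4ha1 and P4ha2, are also HIF targets, and P4ha2 went from 431 and 443 to 10.8 and 12.4 CPM, a 37.9-fold fall.

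The core of the hypoxia response element, TACGTG on either strand, was searched in the RefSeq promoters (GRCm38.p6), each reaching from 250 bases before to 50 bases after a start. It was found in 9 of the 31 list genes that had a promoter there (29.0%), against 3.67% of all genes and 3.23% of all 32851 promoters. This motif was added after the fall of the list had been seen, and a match is a description of sequence and does not show binding. All 9 were among the 26 matched genes that fell, which make up most of the matched list. The stretches around the match in 4 of them are shown to give the element in its context, with the match in capitals.
P4ha2 (chr11:54100805-54100890, plus strand): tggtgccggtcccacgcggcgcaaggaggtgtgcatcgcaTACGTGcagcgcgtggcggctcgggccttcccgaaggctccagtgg
P4ha1 (chr10:59323240-59323295, plus strand): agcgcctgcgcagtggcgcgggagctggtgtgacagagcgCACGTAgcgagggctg
Car9 (chr4:43506968-43507025, plus strand): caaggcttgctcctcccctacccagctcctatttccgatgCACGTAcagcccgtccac
Egln1 (chr8:124949278-124949363, minus strand): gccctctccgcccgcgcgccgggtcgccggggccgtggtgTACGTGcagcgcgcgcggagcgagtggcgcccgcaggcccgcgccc
In P4ha1 and Car9 the element lies on the opposite strand and reads as its reverse complement. P4ha1 went from 746 and 756 to 52.1 and 50.5 CPM, Car9, a carbonic anhydrase, from 7.72 and 7.65 to 0.592 and 0.680 CPM and Egln1, the oxygen sensor that marks HIF for decay, from 159.8 and 163 to 63.7 and 61.8 CPM.

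Sterol and fatty acid synthesis fell as a chain. Of 28 tested genes 26 fell and none rose (median -1.73), and the share of reads went from 0.77% and 0.769% to 0.267% and 0.272%. In this pathway the factor Srebf2 induces the enzymes from acetyl-CoA to cholesterol. Hmgcs1, at the entry to the pathway, went from 496 and 496 to 104 and 99 CPM. Cyp51, which demethylates lanosterol, fell from 327 and 329.6 to 50.3 and 51.7 CPM and Fdps, which makes farnesyl diphosphate, from 409 and 414 to 70.3 and 66.4 CPM. Srebf2 fell by 1.01, close to the threshold, and Srebf1 (-0.38) and Acaca (-0.79) were not called. The sterol regulatory element TCACNCCAC was found in 1 of 18 list genes with a promoter, Hmgcs1, against 1.44% of all genes. Its promoter is shown with the element in capitals.
Hmgcs1 (chr13:119690174-119690262, plus strand): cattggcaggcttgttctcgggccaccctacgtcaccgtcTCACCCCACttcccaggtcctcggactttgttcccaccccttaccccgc

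Serine synthesis and the targets of Atf4, the factor of the amino acid response, mostly fell. Of 22 tested, 14 fell and 3 rose (median -1.66). Trib3, a pseudokinase induced by Atf4, went from 137 and 135 to 0.862 and 0.946 CPM, a 150.4-fold fall, and Chac1, which degrades glutathione, from 38.6 and 39 to 1.32 and 1.63 CPM. Phgdh and Asns, which make serine and asparagine, went from 357 and 349 to 79 and 75.6 CPM and from 291 and 286 to 62.9 and 63.2 CPM. Among folate enzymes of the list, the mitochondrial Shmt2, Mthfd2 and Aldh1l2 fell by 1.62, 3.77 and 5.14 on the log2 scale. The cytosolic Shmt1 and Mthfd1 rose, from 10.6 and 10.6 to 46.7 and 48.7 CPM and from 48 and 48.9 to 102 and 102 CPM, although Mthfd1 was just under the threshold with DESeq2 (0.95). Tdh, the threonine dehydrogenase of mouse pluripotent cells, rose from 0.185 and 0.244 to 13.6 and 13.1 CPM. Atf4 RNA fell from 402 and 402 to 143 and 137 CPM.

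AP-1 and immediate early genes, which respond to serum and stress, fell in 11 of 18 cases with none higher (median -1.02). Fosl1 and Fosl2, AP-1 subunits, went from 16.2 and 17.9 to 2.02 and 1.51 CPM and from 196 and 193 to 54.5 and 54.3 CPM, and the stress factor Atf3 from 138 and 152 to 42.8 and 35 CPM. Fos and Junb, at -0.63 and -0.94, were not called, and Jun fell by 1.04. With library-size scaling 7 of the 18 fell. No AP-1 site (TGANTCA) was found in the promoters of 14 list genes, against 8.97% of all genes, which says only that these letters are not in these windows.

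Secreted cytokines and matrix proteases fell in 20 of 24 cases (median -1.88). Cxcl12, a chemokine made by stromal cells, went from 239.6 and 238 to 40.4 and 43.5 CPM. The protease urokinase (Plau) and its receptor (Plaur) went from 54.7 and 55.9 to 10.7 and 9.52 CPM and from 44.7 and 46.5 to 7.16 and 6.21 CPM. Il6, a cytokine of inflamed fibroblasts, was low throughout, at 7.54 and 9.15 CPM in MEF and 0.808 and 0.236 CPM at day 3. Saa3, the member called higher, had 2 reads in the MEF libraries together and 16 at day 3, a ratio of 6.75 with a 95% counting interval of 1.59 to 60.5.

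Of 29 interferon response and antigen presentation genes, 16 fell and 1 rose (median -1.15). The share of all reads held by the list moved little, from 0.111% and 0.114% in MEF to 0.111% and 0.105% at day 3. Isg15, a ubiquitin-like protein induced by interferon, went from 14.2 and 13.1 to 0.565 and 0.384 CPM, and Oasl2 from 8.5 and 7.35 to 0.700 and 0.384 CPM. For antigen presentation, B2m, the light chain of class I molecules, fell from 350.2 and 359.6 to 143 and 136 CPM, whereas the heavy chain gene H2-D1 (-0.01) was not called and H2-K1 fell by 1.15, or by 0.94 and under the threshold with library-size scaling. H2 genes are closely similar, so the division of reads among them is uncertain. Bst2, a membrane protein that tethers viruses, rose from 21.2 and 20.7 to 60.4 and 58.6 CPM.

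The interferon-stimulated response element, searched as GAAA, any 2 bases and GAAA again on either strand, was found in 12 of 25 list genes with a promoter (48.0%) against 3.99% of all genes. Of 13 matched genes that fell 7 held it. The gene that rose, Bst2, held it too. The stretches around the matches in 3 genes that fell are shown with the matches in capitals, since they differ in how many overlapping copies they hold.
Isg15 (chr4:156200835-156200936, minus strand): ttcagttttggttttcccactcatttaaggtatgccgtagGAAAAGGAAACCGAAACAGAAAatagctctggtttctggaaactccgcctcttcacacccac
Ifit1 (chr19:34640745-34640853, plus strand): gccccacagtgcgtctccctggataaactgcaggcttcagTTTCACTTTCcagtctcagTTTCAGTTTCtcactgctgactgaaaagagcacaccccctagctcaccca
Oas1a (chr5:120907526-120907585, minus strand): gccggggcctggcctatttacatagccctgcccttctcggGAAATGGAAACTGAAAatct
There were 3 overlapping matches in Isg15, 2 separate ones in Ifit1, both on the opposite strand and printed as the reverse complement, and 2 overlapping ones in Oas1a. Ifit1, which binds foreign RNA, went from 3.73 and 2.53 to 0.269 and 0.0296 CPM and Oas1a, which senses double-stranded RNA, from 2.55 and 2.9 to 0.511 and 0.207 CPM, both low in MEF.

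Genes of cell division rose in part. Of 26 DNA replication genes 16 rose and none fell (median 1.14), and of 20 mitosis genes 7 rose and none fell (median 0.92), against 14.6% of all genes higher. With library-size scaling the counts were 20 and 14. Ccnd2, cyclin D2, went from 659 and 651 to 2080 and 2223 CPM and Rrm1, a subunit of ribonucleotide reductase, from 214 and 212 to 739.6 and 737 CPM. Mcm7, part of the replicative helicase, rose from 86.1 and 81.9 to 249 and 243 CPM. In mitosis, Aurkb, the Aurora B kinase, rose from 31.6 and 30.4 to 94.9 and 95.9 CPM and Mki67, the proliferation marker Ki-67, from 269 and 259 to 694 and 735 CPM. Ccnd3, Ccne1, Ccne2 and E2f1, at -0.56, 0.23, 0.45 and 0.15, were among the members not called.

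The brakes of the cycle and the targets of p53 showed no common direction. Of 22 tested 4 rose and 3 fell (median 0.28), which is 31.8% called against 29.1% of all genes. The Cdk inhibitors Cdkn2b and Cdkn1c fell, from 104 and 103 to 20.9 and 19.1 CPM and from 128 and 126 to 46.1 and 45.2 CPM, and Cdkn2c rose by 1.13. Cdkn1a, the p53 target p21, was at 324 and 332 CPM in MEF and 317 and 298 CPM at day 3, and Cdkn2a, which encodes p16 and p19Arf, at 42.4 and 47.5 and 65.2 and 62.8 CPM. Neither was called. Perp, a p53 target that is also a component of desmosomes, rose from 2.33 and 2.26 to 105 and 105 CPM, a log2 fold change of 5.51 (SE 0.06). The kinase Plk2 fell from 312 and 307 to 69 and 61.9 CPM.

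Ribosome biogenesis genes and other classical Myc targets moved little. Of 32 tested 3 rose and none fell (median 0.43), which is 9.4% called against 29.1% of all genes. The members that rose were Ppat, the first enzyme of purine synthesis, from 18.5 and 17.2 to 61.2 and 62.1 CPM, Dkc1, which modifies ribosomal RNA, from 32.1 and 30.9 to 80.2 and 79.5 CPM, and Polr1b, a subunit of RNA polymerase I, from 20.8 and 19.9 to 46.2 and 45.9 CPM. The nucleolar proteins Ncl and Npm1 were at 630.3 and 638 and 980.2 and 997 CPM in MEF and 946 and 931 and 1546 and 1519 CPM at day 3, below the fold threshold. Odc1 (-0.61) and Nme1 (-0.63) were lower at day 3 and not called. The E-box CACGTG was found in 7 of 26 list genes with a promoter, against 8.09% of all genes, and in none of the 3 that rose. Paics, the neighbour of Ppat on chromosome 5 and an enzyme of the same pathway, rose from 196 and 200 to 809 and 819 CPM and was among the 10 largest gains in CPM of called protein-coding genes. The annotated ends of the pair overlap on opposite strands, and whether the quantification used strand is not given in the sources used here.

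Epithelial genes went in both directions. Of 37 tested 16 rose and 8 fell (median 1.05). Some calls of epithelial genes rest on few reads. Marveld3, Ovol2 and Tjp3 rose from 1, 1 and 2 reads in the MEF libraries together to 13, 15 and 20 at day 3. Cldn7 fell from 14 reads to 3. Ehf (chromosome 2, 103263433 to 103303278), an ETS factor of epithelia, was at 0.111 and 0.122 CPM in MEF and 107 and 109 CPM at day 3, an 897-fold rise. The junction genes Dsp, desmoplakin, and Cxadr rose from 3.1 and 3.48 to 29.8 and 31.9 CPM and from 18.5 and 18.6 to 124 and 132 CPM. Cdh1, E-cadherin, rose from 0.222 and 0.518 to 10.3 and 8.69 CPM, and the surface protein Epcam was at 0.148 and 0.244 CPM in MEF and 0.565 and 0.621 CPM at day 3, called higher yet under 1 CPM in each library. Neither Cdh1 nor Epcam passed the threshold by limma on log2(TPM + 1), at 0.98 and 0.14, and Epcam was also not called with glmTreat (adjusted p = 0.15) and limma on log2(TPM + 0.1) (0.77). Simple epithelial keratins did not follow. Krt18 and Krt19 fell, from 7.61 and 8.81 to 2.88 and 2.66 CPM and from 27.4 and 28 to 7.4 and 7.48 CPM, and Krt8 was at 5.62 and 6.43 CPM in MEF and 3.23 and 3.19 CPM at day 3 (log2 fold change -0.91, not called, though past the threshold with DESeq2 at -1.04, and at the threshold with the stricter filter and without MEF replicate 1). Cdh3, P-cadherin, was among the largest falls, from 221 and 217 to 0.619 and 0.769 CPM. The KLF site GGGNGTGGC was found in 3 of 22 list genes with a promoter, against 6.59% of all genes.

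Pluripotency genes rose more often than they fell. Of 35 tested 12 rose and 4 fell, against 14.6% and 14.5% of all genes (median 0.48). Of the 35, 2 had no reads in any of the 4 libraries and could not be called. L1td1 (chromosome 4, 98726734 to 98738480), an RNA-binding protein of pluripotent cells, went from 0.480 and 0.640 to 411 and 408 CPM. Fgf4 (chromosome 7, 144847367 to 144865243), a growth factor and a known joint target of Oct4 and Sox2, had 3 reads in the MEF libraries together and 6700 at day 3, a ratio of 1880 with a 95% counting interval of 644 to 9140. Gdf3 and Nodal, ligands of the TGF-beta family, had no reads in the MEF libraries. Set against a floor of 3 counts over the group, the ratios were 52.6 and 16.3, with lower 95% counting limits of 42.3 and 12.8. At day 3 Gdf3 stood at 2.88 and 2.37 CPM and Nodal at 0.808 and 0.828 CPM. Trim71, an RNA-binding protein, rose from 3.95 and 3.72 to 21.4 and 21.6 CPM, and Klf2 fell from 170.3 and 166 to 15.8 and 14 CPM. Nanog was at 0.850 and 1.37 CPM in MEF and 1.35 and 2.6 CPM at day 3, Sall4 at 0 and 0.0610 and 0.242 and 0.0591, and Lin28a at 0.148 and 0.0610 and 0.0269 and 0. None of these 3 was called, and each passed the threshold in some settings. Nanog did so without MEF replicate 2 or D3 replicate 1 (1.2 each). Sall4 did so without MEF replicate 2 (5.44) or D3 replicate 2 (2.74), and, with all libraries, under library-size scaling (2.28), no low-count filter (2.11) and the stricter filter (2.02). Lin28a, in the downward direction, did so without MEF replicate 2 (-3.09) or D3 replicate 1 (-4.81) and with the stricter filter (-2.63). The octamer ATGCAAAT was found in 1 of 22 list genes with a promoter, against 1.97% of all genes.

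Signalling readouts moved apart. Several targets of FGF signalling rose: Etv5, an ETS factor, from 25.1 and 26.4 to 260 and 256 CPM and Spry4, a feedback inhibitor, from 14.2 and 13.1 to 131 and 130 CPM, with Spry2, Dusp4 and Etv4 also higher. Spry1, of the same family, fell from 74.7 and 72.6 to 15.8 and 15.9 CPM. Of the Wnt readouts, Lef1 (0.66), Znrf3 (0.28) and Sp5 (0.00) were not called, and several fell. Lgr5, a Wnt-dependent receptor, went from 134 and 136 to 3.53 and 3.31 CPM, Nkd1, an inhibitor of the pathway, from 25.3 and 24 to 1.99 and 2.57 CPM and Axin2 from 3.88 and 3.72 to 0.969 and 0.414 CPM. Of the hedgehog genes, Gli1 had 173 reads in the MEF libraries and 3 at day 3, and the receptor Ptch1 rose from 15.3 and 15.5 to 36.5 and 39.8 CPM, though not past the threshold in TPM (0.73 by limma on log2(TPM + 1)). In all, 6 of 26 tested genes of this list rose and 13 fell (median -0.88). Of the 26, 1 had no reads in any of the 4 libraries and could not be called.

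LIF was part of the day 3 medium. Of 16 genes of its pathway 6 fell and 2 rose, against 14.5% and 14.6% of all genes (median -0.78). The share that rose was thus no larger than over all genes. Among receptors, Osmr fell from 162 and 159 to 36.3 and 37.2 CPM and the shared chain Il6st from 527 and 526 to 222 and 245 CPM, whereas Lifr (-0.08) was not called. Jak2 and Stat3, the kinase and the transcription factor below them, fell by 1.25 and 1.04 on the log2 scale. Among targets, Pim3 and Cish rose from 32.4 and 32.1 to 91 and 81.9 CPM and from 19.5 and 19.3 to 47 and 41.9 CPM, Pim1 fell from 92.3 and 89.3 to 28.7 and 28.8 CPM, and Socs3, at 529 and 526 CPM in MEF and 961 and 852 CPM at day 3, had a log2 fold change of 0.78 and was not called.

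Genes of detoxification and glutathione, many of them targets of Nrf2, rose more often than they fell. Of 33 tested 10 rose and 3 fell, against 14.6% and 14.5% of all genes (median 0.26). Aldh3a1 (chromosome 11, 61207537 to 61218421), an aldehyde dehydrogenase of cornea and stomach, was at 0.259 and 0.244 CPM in MEF and 733 and 689.7 CPM at day 3, a log2 fold change of 11.45 (edgeR adjusted p = 9.8e-19, SE 0.08). The glutathione transferase Gsta4 rose from 18.5 and 19.6 to 528 and 486 CPM and the cystine transporter Slc7a11 from 14 and 15.4 to 83 and 91.2 CPM. Hmox1, heme oxygenase, and Srxn1, sulfiredoxin, fell from 115 and 117 to 32.1 and 27.8 CPM and from 61.1 and 60.3 to 21.6 and 21.9 CPM. Nqo1, at 19.8 and 19.9 CPM in MEF and 30.7 and 31.9 CPM at day 3, was not called. The core of the antioxidant response element, TGACNNNGC, which can overlap an AP-1 site, was found in 10 of 28 list genes with a promoter, against 14% of all genes. It was in 3 of the 8 matched genes that rose and 1 of the 2 that fell. The CArG box of SRF was found in 6 of 18 contractile list genes, 3 of them among the 13 that fell, against 1.81% of all genes.

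Of 26 enzymes of DNA methylation and chromatin, 4 rose and 1 fell (median 0.48), a share of 19.2% called against 29.1% of all genes. Dnmt1, which copies DNA methylation after replication, and its partner Uhrf1 rose from 116 and 109 to 244 and 244 CPM and from 67.1 and 72.6 to 195 and 189.5 CPM, together with Chaf1b, a histone chaperone of replication, from 19.98 and 17.9 to 44.3 and 44.1 CPM. With library-size scaling 8 rose, and with DESeq2 Dnmt1 was just under the threshold at 0.99. The oxidases Tet1, Tet2 and Tet3, for which ascorbic acid is known as a cofactor, differed by -0.67, 0.91 and 0.67 and were not called.

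The largest rises beyond these lists were in genes of varied function. By the fold, the leading protein-coding genes at 20 CPM or more included Tmprss5, a membrane serine protease, with 2 reads in the MEF libraries and 9402 at day 3 (ratio 3970, 95% counting interval 1100 to 32800). Abcc12, a transporter, and Sptssb, a subunit of serine palmitoyltransferase, had 1 read each in the MEF libraries and 2003 and 1898 at day 3. Trh, the precursor of thyrotropin-releasing hormone, went from 0.443 and 0.305 to 276 and 248 CPM, Pipox, a peroxisomal oxidase, from 0.148 and 0.0610 to 85.8 and 83.3 CPM and Cacna2d2, a calcium channel subunit, from 0.148 and 0.122 to 86.9 and 85.3 CPM. Each of these was below 0.5 CPM in both MEF libraries and above 25 CPM in both day 3 libraries.

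Counted in CPM gained among called protein-coding genes, the first was Hspa8, the constitutive Hsp70 chaperone, from 1252 and 1254 to 3461 and 3419 CPM. Fmod, fibromodulin, a collagen-binding proteoglycan, rose from 168 and 173 to 1692 and 1631 CPM, against the direction of the matrix list to which it does not belong. Igfbp3, which binds insulin-like growth factors, rose from 224 and 222 to 1468 and 1397 CPM and the surface protein Cd109 from 288 and 294 to 1260 and 1327 CPM. Podxl, podocalyxin, a sialomucin of epithelia and pluripotent cells, rose from 2.18 and 2.1 to 859.8 and 854 CPM, a 400.1-fold change. Prx, periaxin, known from Schwann cells and lens, and the adhesion protein Adam23 rose from 13.3 and 13 to 798 and 788 CPM and from 72.7 and 69.5 to 798 and 784 CPM.

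Among protein-coding genes at 20 CPM or more, the 10 largest falls by the fold included, besides Y-linked genes, Ndufa4l2 and Cdh3, several genes of connective tissue. Lrrc15, a membrane protein of activated fibroblasts, went from 554 and 539.8 to 0.323 and 0.857 CPM, Tnmd, tenomodulin of tendons, from 101 and 101 to 0.162 and 0.0887 CPM and Cthrc1, a secreted collagen triple helix protein, from 221 and 223 to 0.431 and 0.650 CPM. The vasopressin receptor Avpr1a, the connexin Gjb2 and the orphan receptor Gpr149 fell from 23.9 to 36.4 CPM in the MEF libraries to 0.135 CPM or less at day 3.

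**Figure D3:**
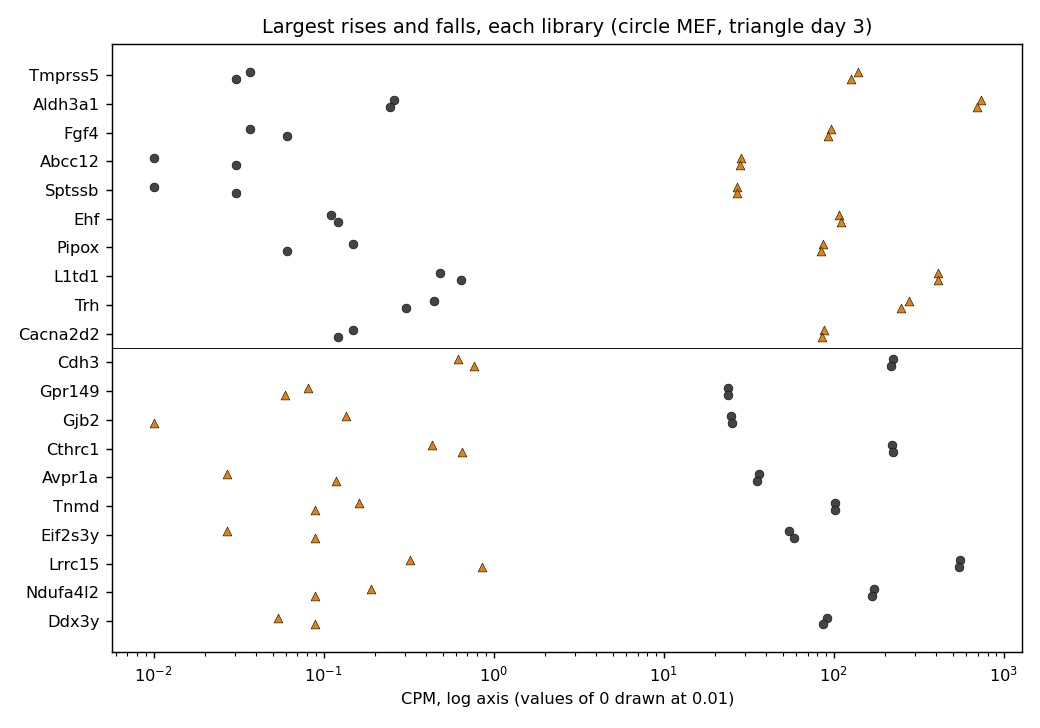
CPM on a log axis for the 20 protein-coding genes with the largest rises (top) and falls (bottom), with circles for the 2 MEF libraries and triangles for the 2 day 3 libraries. Values of 0 are drawn at 0.01. Libraries of a stage lie close together at the higher level, and the spread at the lower level comes from genes with few reads or none.

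Gene clusters were looked at after their values had been seen, so their counts are descriptions. Hox genes, which encode position along the body axis, moved differently from cluster to cluster. In the Hoxa cluster 6 of 11 genes rose and 2 fell. Hoxa5 went from 6.61 and 6.8 to 22 and 22.4 CPM and Hoxa7 from 11 and 12.3 to 26.5 and 27.7 CPM, while Hoxa10 and Hoxa11 fell from 29.7 and 31.8 to 14.3 and 14.8 CPM and from 12.5 and 13.3 to 5.44 and 4.29 CPM. In the Hoxb cluster 2 of 9 rose and 2 fell, with Hoxb9 from 63.6 and 61.2 to 8.67 and 8.34 CPM and Hoxb3 from 17.8 and 15.6 to 35.5 and 38.2 CPM. No gene rose in the other clusters, where 4 of 9 Hoxc and 3 of 8 Hoxd genes fell, such as Hoxc10 from 33.4 and 34.6 to 8.53 and 8.54 CPM. With library-size scaling Hoxa10 was no longer called (log2 fold change -0.88), and the counts were 6 higher and 1 lower for Hoxa, 3 and 2 for Hoxb, 0 and 3 for Hoxc and 0 and 2 for Hoxd. Without MEF replicate 2 or D3 replicate 1 only 1 Hoxd gene was lower. Hoxb had 1 gene higher without MEF replicate 2, and 1 lower without MEF replicate 1 or D3 replicate 2. By limma on log2(TPM + 1) the counts were 4 and 0 for Hoxa and 0 and 1 for each other cluster.

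The clustered protocadherins, adhesion molecules that neurons use as identity labels, lie in a row on chromosome 18. Of the Pcdhb genes 19 of 20 tested fell (median log2 fold change -2.49), of the Pcdhg genes 14 of 21 (median -1.27) and of the Pcdha genes 3 of 6, with none higher. The Pcdha genes were near 0 in all 4 libraries except Pcdhac2, at 5.28 and 6.25 CPM in MEF and 6.84 and 8.13 CPM at day 3 and not called. Summed over the genes, Pcdhb was at 79.1 and 76.1 CPM in MEF and 17.3 and 18.8 CPM at day 3. The largest single gene, Pcdhb17, went from 16.4 and 14.9 to 2.61 and 2.19 CPM, and Pcdhb22 from 12.9 and 13.3 to 6.06 and 6.3 CPM. The first exons of Pcdhg genes are spliced to shared exons, so the division of reads within that cluster is uncertain. On chromosome 18 as a whole 43 genes rose and 107 fell, and without protocadherins 43 and 70 of 438 tested. Library-size scaling left 17 Pcdhb and 12 Pcdhg genes lower, and limma on log2(TPM + 1), on which scale they are near 0, called 1 and 2.

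**Figure D4:**
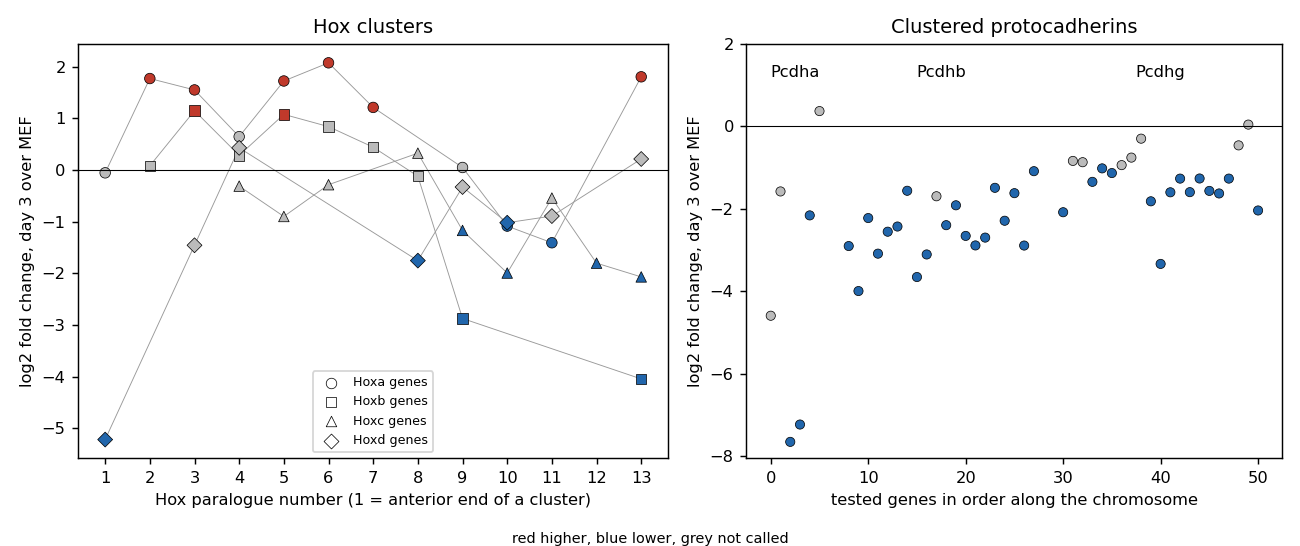
Log2 fold changes of day 3 over MEF for tested Hox genes by paralogue number (left, with the 4 clusters as different symbols joined by lines) and for clustered protocadherins in order along the chromosome (right). Red points are called higher, blue lower and grey not called, and Hoxa genes 2 to 7 lie above 0 while Hoxa10 and Hoxa11 and all 20 tested Pcdhb genes lie below it.

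Markers of other cell types were counted in the same libraries. Their part in the results above was not tested. Macrophage markers summed to 18 and 19.1 CPM in MEF and 39.0 and 34.1 CPM at day 3, with 4 of 10 higher, led by Lyz2 from 3.58 and 3.23 to 13.5 and 11.9 CPM. Endothelial markers summed to 18.5 and 15.3 CPM and to 136 and 133 CPM, most of it Tek, the angiopoietin receptor, which rose from 2.25 and 2.41 to 121 and 121 CPM, while Emcn, of the same list, had 244 reads in the MEF libraries and 3 at day 3. Muscle markers summed to 110 and 112 CPM in MEF and 9.4 and 10 CPM at day 3, with 7 of 8 lower. Des went from 72.4 and 78.9 to 5.98 and 6.41 CPM. Myog had 137 reads in the MEF libraries and none at day 3. Against the floor of 3 counts its ratio of MEF over day 3 was 54.1, with a lower 95% counting limit of 43.4. Of the neural and glial markers 4 of 9 rose and 2 fell: Ngfr rose from 3.73 and 3.63 to 105 and 104 CPM, and Tubb3, neuronal tubulin, fell from 94.9 and 96 to 0.431 and 0.502 CPM. Cartilage markers fell in 5 of 7 cases, with Sox9 from 36.5 and 35.4 to 10.3 and 8.28 CPM, and Col2a1 rose from 37.8 and 42.7 to 110.2 and 109.5 CPM. Of the adipocyte markers 3 of 4 fell, such as the lipase Lpl from 79.2 and 77.1 to 18.8 and 19.1 CPM, and of the keratinocyte markers 3 of 9 fell and 1 rose. All 6 red cell markers were at or near 0. Placental and endoderm genes were low in both stages and mixed, with 7 of 20 higher and 5 lower, such as Tead4 from 5.5 and 5.21 to 28.5 and 29.9 CPM.

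The levels reached at day 3 were set beside those of the next stages. The contrast of day 6 with day 3 shares the day 3 libraries with the contrast above and also compares sorted with unsorted cells, so the values are given side by side. Fmod, at 1692 and 1631 CPM at day 3, stood at 133 and 136 CPM at day 6 (log2 difference of day 6 from day 3 -3.63, edgeR adjusted p = 5.2e-16), close to its MEF level of 168 and 173 CPM. Igfbp3 likewise stood at 158 and 159.5 CPM, Actg2 at 211 and 206 CPM and Col2a1 at 1.73 and 1.75 CPM at day 6, each below its day 3 and its MEF values. Ehf, L1td1, Podxl and Trh were higher at day 6 than at day 3 by 0.75, 0.29, 0.36 and 1.57 on the log2 scale, and Trh and Ehf were at 53 and 57.1 and 0.560 and 0.641 CPM in the ESC libraries. Matrix genes were lower again, Col1a1 at 8.23 and 8.47 CPM and Postn at 0.853 and 0.514 CPM. The factors that had not passed the fold threshold at day 3 stood at 7.82 and 7.89 CPM (Twist1) and 74.4 and 71.1 CPM (Prrx1) at day 6, log2 differences of -2.56 and -2.43.

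Several genes that were low at day 3 stood higher at the next stage. Epcam stood at 120.5 and 119.7 CPM at day 6, Cdh1 at 77.4 and 80.2 CPM, Nanog at 25 and 26.6 CPM and Sall4 at 22.5 and 22.4 CPM. Against the ESC libraries, day 3 was lower in Nanog, Cdh1 and Epcam, with log2 differences of -8.07, -5.23 and -7.92. L1td1 differed by -0.35 and Fgf4 by -1.09. In contrast, day 3 cells carried Aldh3a1, Ehf, Podxl and Prx at log2 differences of 9.12, 7.48, 5.41 and 4.73 over ESC. The cassette factors Sox2, Pou5f1, Klf4 and Myc differed by 0.09, -2.31, 1.34 and 3.88. Their cassette and endogenous reads were counted together, so these values do not compare the endogenous genes. Cyp51 was at 50.3 and 51.7 CPM at day 3, 57.2 and 59.7 CPM at day 6 and 58.1 and 55.5 CPM in ESC. Slc7a11 was higher at day 6, at 288 and 277 CPM, than at day 3.

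**Figure D5:**
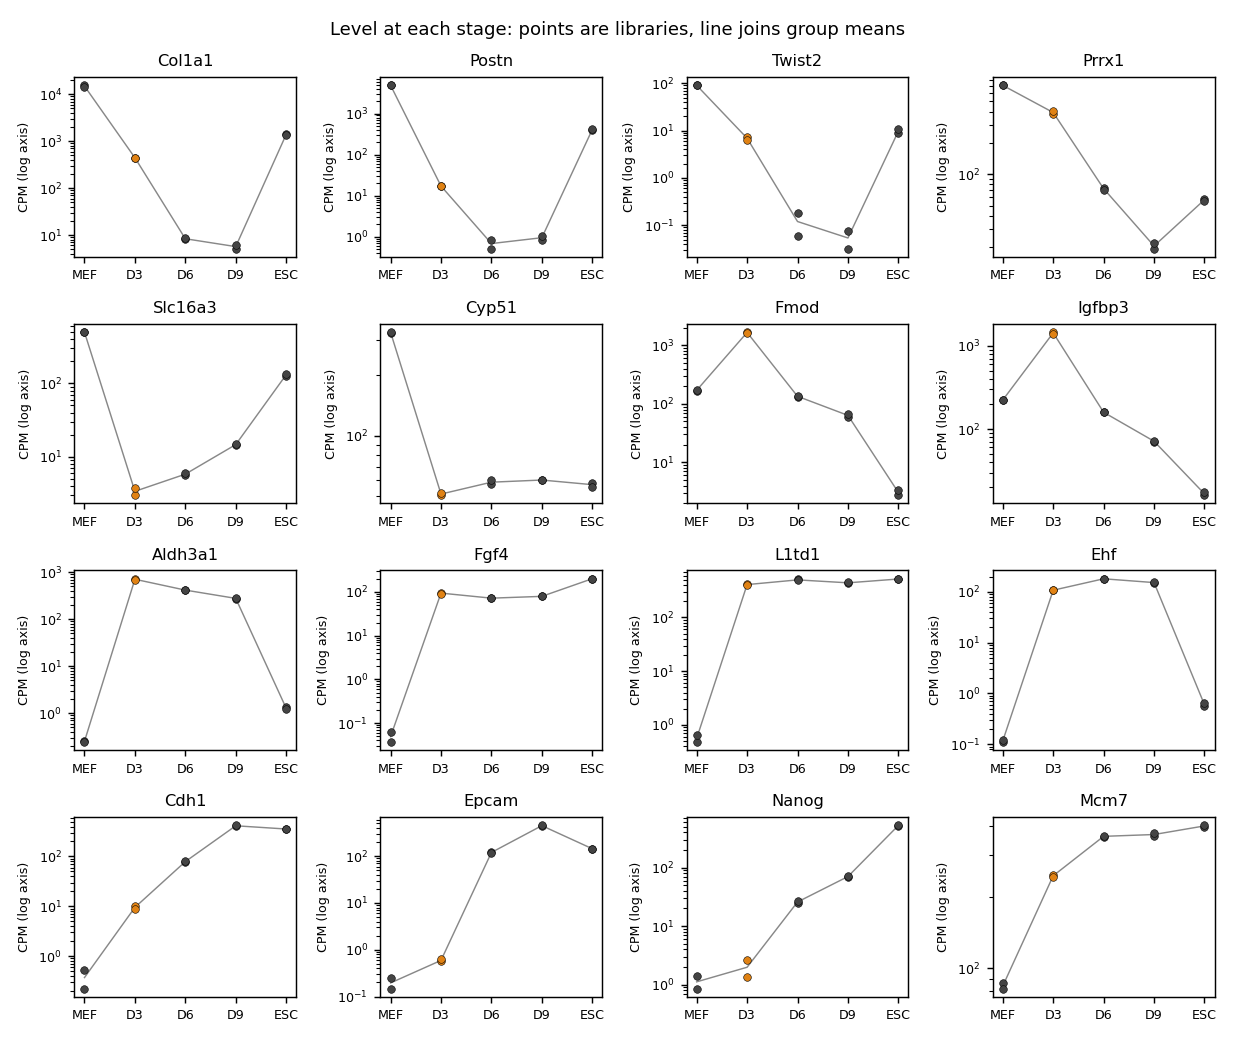
CPM on log axes for 16 genes at MEF, day 3, day 6, day 9 and ESC, with 1 point for each of the 2 libraries of a stage, a line through the group means and day 3 in orange. Values of 0 are drawn at 0.01. Fmod and Igfbp3 peak at day 3, Col1a1 and Postn fall from MEF through day 6, and Cdh1, Epcam and Nanog are higher at day 6 than at day 3.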

How the data were processed

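Per the labels' protocols, RNA extracted with TRIZOL was made into stranded mRNA libraries and sequenced as single reads of 50 nt. Per the submitters' processing notes, the tools and builds named are Salmon 0.8.2 and mm10. The transcript index and the strand setting are not given in the sources used here. Per the file headers, the authors deposited for each library the estimated count of reads and the TPM value of 109617 transcripts, beside lengths. Estimated counts as deposited by the authors carry no scaling, whereas their TPM corrects for effective length and sums to the same total in each library.

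Estimated counts were summed to 45706 genes and rounded. Genes were kept with filterByExpr of edgeR 4.0.16 (minimum count 10, minimum total 15), scaled with TMM and tested with the quasi-likelihood test on all 10 libraries, 2 in each of 5 groups, which share 1 estimate of spread. The filter also used all 10 libraries, so a gene without reads in MEF and day 3 could count as tested. A filter on the 4 libraries alone left 17433 genes to test. A gene was called at a Benjamini-Hochberg adjusted p under 0.05 and a log2 fold change of at least 1. SE was taken from the fold change and its F statistic. Libraries of a pair differed by more than sampling noise (chi-square per degree of freedom 2.78 for MEF and 5.05 for day 3). The common coefficient of variation between libraries of a group was small, at 3.75%, and small adjusted p-values rest on it. Counting intervals are exact binomial at a confidence level of 0.95 and, like the floor of 3 counts, cover counting error only. Coordinates are from GENCODE M21 (GRCm38), where 98.8% of genes were found by identifier, and promoters from RefSeq (GRCm38.p6).

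The comparison, the gene lists and the named genes were chosen with earlier results of these data known. Named were the cassette factors and sex-linked genes, the 10 largest rises and falls of protein-coding genes by log2 fold change (20 CPM or more in the higher group, no overlap of libraries) and by CPM, up to 3 rises and 3 falls in each list at 20 CPM or more, and a panel of 18 genes. Some genes that this rule picks are not reported here. Other genes named were chosen after their values were seen. Lists are described by counts and medians, without a test. In simulated data, drawn for all groups from the MEF means, 100% of 200 genes changed by 2 on the log2 scale among 17005 were called, and 1 unchanged gene. The changed genes were well-read ones, equally many up and down. The simulation therefore did not cover genes with few reads or a share of calls like the 29.1% found here. Alternatives used DESeq2 1.42.0 and limma 3.58.1 (R 4.3.3), other filters, scalings and thresholds, a replicate block, and each library left out.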

Additional observations from a re-analysis of the deposited data

How the results depend on the processing

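No named gene that was called changed direction in the settings run, and no gene was called in the direction opposite to the main fit. The balance of calls did move: 43.9% of them were higher with DESeq2 and 60.5% with library-size scaling, beside 50.2% in the main fit. Of the 151 named genes, 128 kept their call in each setting that tested them. Some settings tested fewer, such as the fit without chromosomes X and Y. For genes higher and lower at day 3 (2950 and 2923), the stricter filter (10 CPM in 2 libraries, 11712 genes tested) gave 1467 and 1555, no fold change minimum 7146 and 5948, and limma on log2(TPM + 1) 1280 and 1383. The filter and the minimum change the counts by their construction, and for limma the cause was not tested. DESeq2 gave 2301 and 2945, no low-count filter 3160 and 3079, a fit of the 4 libraries alone 2525 and 2898, glmTreat against the fold minimum 2006 and 2195, and limma on log2(TPM + 0.1) 2325 and 2365. Leaving out each library in turn, with the lone library of a stage taken to vary like the other groups, gave 2775 to 2822 higher and 2738 to 2795 lower genes. Fitting the replicate number as a block gave 2885 and 2863 and changed the call of no named gene. The deviations of MEF and day 3 libraries with the same number had a correlation of -0.0205, which gave no sign of pairing by number. It rests on 1 difference between libraries in each group, so it cannot decide whether libraries shared an origin.

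Beside the values given with the results, Trim71 was under the threshold by limma on log2(TPM + 1) (0.82), and Fut4, at 1.37 and 1.65 CPM in MEF and 2.96 and 2.66 CPM at day 3, passed it with library-size scaling (1.1) and without MEF replicate 2 (1.04). Genes with few reads limit what can be said of Epcam, Nanog, Sall4 and Lin28a at this depth.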

Other observations

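Non-coding RNAs and gene families outside the lists also moved. These were chosen after their values were seen. Of 1767 long non-coding genes tested, 399 rose and 137 fell (median log2 fold change 0.44), beside 2238 and 2597 of 15888 protein-coding genes (median 0.03). H19, an imprinted RNA, rose from 3042 and 3091 to 7314 and 6958 CPM, and Mir17hg, the host of a microRNA cluster known as a Myc target, from 2.07 and 1.8 to 15.7 and 15.9 CPM. Neat1, which scaffolds nuclear paraspeckles, rose from 108 and 114 to 389 and 387 CPM, and its neighbour Malat1 was at 880.3 and 825 CPM in MEF and 798 and 921 CPM at day 3 and was not called.

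All 6 tested Ugt1a genes, which encode enzymes that conjugate glucuronic acid, were higher at day 3, by a median log2 fold change of 4.07, and summed to 7.02 and 6.49 CPM in MEF and 168 and 161 CPM at day 3. Nearly all of this was Ugt1a6a, from 2.73 and 2.77 to 85.3 and 80.5 CPM, and Ugt1a6b, from 3.03 and 3.51 to 78 and 76.4 CPM. By limma on log2(TPM + 1) 3 of the 6 were higher, with a median of 0.69. Ugt1a genes share their last exons and the members are closely similar, so the division of reads among them is uncertain.

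Some pseudogenes went from nothing to high values or back. Rps13-ps1 was at 0 CPM in both MEF libraries and 120.4 and 114 CPM at day 3, Rps15a-ps8 at 0.222 and 0.183 and 28.6 and 25.5 CPM, and Gm28439 at 71.6 and 76.8 CPM in MEF and 0 in both day 3 libraries. Gm15459, another pseudogene, went from 718 and 729.9 to 11.6 and 13.1 CPM. Reads of such copies and of their parent genes are hard to divide. Of 1579 pseudogenes tested 127 rose and 140 fell, which is 16.9% called against 29.1% of all genes. Pseudogenes were thus called less often than genes at large, and those named here are extremes.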
